A study of Mus musculus with 32 samples.

Results

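The 7 genes described here encode the cyclin-dependent kinase (CDK) inhibitors of the mouse: Cdkn1a, Cdkn1b and Cdkn1c of the CIP/KIP family and Cdkn2a, Cdkn2b, Cdkn2c and Cdkn2d of the INK4 family. They were taken by symbol from a table of raw read counts of 24421 genes. Of the 7, 5 passed the filter on low counts and are among the 14154 genes tested, while Cdkn2a and Cdkn2b did not pass and are described by their counts. The libraries came from untreated wild-type mice, C57BL/6 females aged 10 weeks (Young) or 20 months (Aged), with 2 libraries for each of 8 bone marrow fractions and 32 libraries in all. Hematopoietic stem cells (HSCs) were sorted as lineage-negative, Sca-1+ and c-kit+ cells that were CD34-, CD150+, CD48- and Flt3-. Within the same Sca-1+ c-kit+ gate, multipotent progenitors (MPPs) were all CD34+ and were divided into MPP1 (CD150+ CD48- Flt3-), MPP2 (CD150+ CD48+ Flt3-), MPP3 (CD150- CD48+ Flt3-) and MPP4 (CD150- CD48+ Flt3+). Granulocyte-macrophage progenitors (GMPs) were sorted as Sca-1- c-kit+ cells with Fc gamma receptor and CD34, and megakaryocyte-erythrocyte progenitors (MEPs) as such cells with neither. Common lymphoid progenitors (CLPs) were lineage-negative cells with the IL-7 receptor and low Sca-1 and c-kit. Marrow of an age was pooled before it was sorted in duplicate, so the p-values may measure only technical spread between sorts and not the variation from mouse to mouse.

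CDK inhibitors are small proteins that restrain entry into the cell cycle. INK4 proteins bind CDK4 and CDK6 and keep them from pairing with D-type cyclins, whereas CIP/KIP proteins bind complexes of cyclin and CDK, above all those of CDK2 with cyclin E or cyclin A. Both families thereby keep pocket proteins such as Rb in the form that holds E2F transcription factors back. In the marrow they are best known from the quiescence of HSCs, where p57 (Cdkn1c) and p27 (Cdkn1b) act, and from aging, with which p16 (Cdkn2a) is widely associated.

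The genes lie at 6 loci of the mouse genome (GRCm38, positions from GENCODE M21). Cdkn1a (p21, a target gene of p53; ENSMUSG00000023067.14) spans chr17:29090976-29100727 on the plus strand, Cdkn1b (ENSMUSG00000003031.14) chr6:134920401-134925513 on the plus strand and the imprinted Cdkn1c (ENSMUSG00000037664.13) chr7:143458339-143461050 on the minus strand. Cdkn2a (ENSMUSG00000044303.6, chr4:89274471-89294653) and Cdkn2b (p15, ENSMUSG00000073802.5, chr4:89306299-89311039) are neighbours on the minus strand, 11645 bases apart. Cdkn2c (p18, ENSMUSG00000028551.14) lies on the same chromosome at chr4:109660876-109667189, and Cdkn2d (p19INK4d, ENSMUSG00000096472.2) at chr9:21288410-21291407, both on the minus strand. The single symbol Cdkn2a covers 2 transcripts, one for p16 and one for p19ARF, which start at 89282192 and 89294653 and were not counted apart. An antisense gene, Gm44732, overlaps Cdkn1c, and a transcript of uncertain status, AC167363.2, lies opposite Cdkn1a. Neither was in the count table, and because no use of strand was stated for the counting, their reads cannot be told from those of the inhibitors.

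Upstream sequence is shown for the inhibitors with the largest called age differences in opposite directions, Cdkn1a and Cdkn2c, and for Cdkn1b, which fell beside Cdkn1a in MPP4. Each is a window of 250 bases before an annotated RefSeq start (GRCm38.p6), written 5′ to 3′ on the strand of the gene, with capitals marking matches to the motifs searched. RefSeq held 9 windows for 6 of the 7 inhibitors. The windows are chr17:29090729-29090978 and chr17:29093519-29093768 for the first and second start of Cdkn1a, chr6:134920151-134920400 for Cdkn1b and, on the minus strand, chr4:109665373-109665622 for 1 of 2 starts of Cdkn2c.
Cdkn1a, first start: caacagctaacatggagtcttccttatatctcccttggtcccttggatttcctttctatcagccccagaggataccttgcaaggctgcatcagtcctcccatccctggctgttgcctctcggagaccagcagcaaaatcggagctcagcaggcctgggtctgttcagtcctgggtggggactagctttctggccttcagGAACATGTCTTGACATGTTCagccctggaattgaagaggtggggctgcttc
Cdkn1a, second start: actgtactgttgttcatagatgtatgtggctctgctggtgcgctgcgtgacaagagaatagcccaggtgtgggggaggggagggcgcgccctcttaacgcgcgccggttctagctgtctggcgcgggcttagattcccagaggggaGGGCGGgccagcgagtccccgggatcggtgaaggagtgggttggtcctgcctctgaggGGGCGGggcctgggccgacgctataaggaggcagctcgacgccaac
Cdkn1b: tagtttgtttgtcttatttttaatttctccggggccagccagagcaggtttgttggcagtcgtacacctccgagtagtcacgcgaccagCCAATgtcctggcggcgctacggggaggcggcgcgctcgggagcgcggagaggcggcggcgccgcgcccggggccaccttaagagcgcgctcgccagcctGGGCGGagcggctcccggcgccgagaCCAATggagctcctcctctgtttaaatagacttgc
Cdkn2c: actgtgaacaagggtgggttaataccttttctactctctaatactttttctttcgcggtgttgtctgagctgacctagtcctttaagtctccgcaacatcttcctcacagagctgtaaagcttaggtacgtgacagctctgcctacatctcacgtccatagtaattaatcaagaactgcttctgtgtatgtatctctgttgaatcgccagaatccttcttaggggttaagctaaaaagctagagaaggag
The motifs were searched on both strands and no match overlapped another. They were the E2F site (TTTCCCGC, TTTCGCGC, TTTGCCGC or TTTGGCGC), the GC box bound by SP1 (GGGCGG), the CHR element (TTTGAA), a forkhead site (GTAAACA), the CCAAT box (CCAAT) and the p53 response element. The capitals of the first Cdkn1a window are a 20-base match to the p53 response element with at most 1 mismatch, at chr17:29090928-29090947, and 19 of 32817 windows in the genome (0.0579%) held such a match. This motif was added after the window had been read. The second Cdkn1a window held 2 GC boxes and 19 CpG dinucleotides, against 2 CpG dinucleotides in the first. The Cdkn1b window held 1 GC box, 2 CCAAT boxes and 28 CpG dinucleotides, and the Cdkn2c window shown held none of the motifs and 6 CpG dinucleotides. The window of the other Cdkn2c start, chr4:109666757-109667006, lies wholly in annotated exon and is not shown. It held 3 GC boxes and 29 CpG dinucleotides, with a GC content of 77.2% against 42.8% in the one shown. GC boxes occurred in 32.7% and CCAAT boxes in 33.8% of all windows. An E2F site, found in 1.86% of all windows, was present in 1 of the 9 windows, that of a Cdkn2a start, which also held 2 GC boxes, and the CHR element (5245 of the 32817 windows) in that of Cdkn2b. A forkhead site (3.16% of all windows) was found in none. A match describes letters in a window and not a bound site.

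Genes of the sort antigens were read first as a check of the fractions. Flt3 had a mean of 1063 CPM in Young and 732 CPM in Aged MPP4, against 27.9 and 15.8 CPM in HSCs. Cd48 stood at 1.05 and 1.73 CPM in HSCs, and Il7r at 158 and 195 CPM in CLPs. In MEPs 6 of the 9 sort antigen genes were lower and 0 higher in Aged, among them Il7r (9.99 and 16.8 CPM in Young, 0.187 and 0.430 CPM in Aged), and Flt3 and Fcgr2b were at 0 in both Aged MEP libraries. Sort antigen genes were called in the other fractions too. In each of MPP2, MPP3 and MPP4 1 of the 9 was higher and 2 were lower in Aged. In each of MPP1 and GMPs 1 was higher and 1 lower, in CLPs 2 were higher and 1 lower, and in HSCs 1 was lower. Total counts per library ran from 11237384 to 17723245, and 3 counts, the most that a count of 0 allows, were worth 0.186 to 0.281 CPM. Levels are TMM-normalised CPM, counts divided by the effective size of the library, values are mean ± SD of 2 libraries, and a gene is called higher or lower where the adjusted p of edgeR's quasi-likelihood test is under 0.01. Floors cover counting error alone, intervals of a log2 difference rest on the spread between libraries that edgeR estimated, and the reads of a bulk library cannot tell fewer expressing cells from less RNA in each.

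Cdkn1c, which encodes p57, was the inhibitor most restricted to HSCs. Its level was 138.2 and 132.3 CPM in the Young HSC libraries and 104.4 and 115.6 CPM in the Aged. In MPP1 it was 51.5 and 50.1 CPM in Young and 35.0 and 33.0 CPM in Aged. It fell stepwise in both ages from HSCs to MPP1 and from MPP1 to MPP2, and HSCs exceeded MPP1 by 2.66-fold in Young (adjusted p = 2.22e-04, edgeR) and by 3.24-fold in Aged (adjusted p = 2.09e-05, edgeR). MPP2, MPP3 and MPP4 followed with means of 23.5, 20.6 and 12.1 CPM in Young and 14.5, 12.2 and 8.11 CPM in Aged, and none of these neighbours in the order of levels differed. The restricted progenitors came last. CLPs had 1.56 and 3.24 CPM in Young and 3.01 and 1.63 CPM in Aged, and the Young GMP and MEP libraries 7 to 33 counts each.

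Cdkn2c, which encodes p18, ran the other way. Young HSC libraries held 8.09 and 6.45 CPM, the lowest of any Young fraction, and Young CLP libraries 142.8 and 141.9 CPM, the highest. Between them lay the Young MPPs and GMPs and MEPs, from 30.6 ± 1.72 CPM in MPP3 to 59.8 ± 3.31 CPM in MEPs. Young CLPs exceeded Young HSCs by 19.7-fold (adjusted p = 6.50e-18, edgeR), and Young MPP1 exceeded Young HSCs by 4.54-fold (adjusted p = 4.84e-12, edgeR). In Aged the order kept its ends, but CLPs exceeded HSCs by 4.70-fold (adjusted p = 2.16e-14, edgeR). In Aged MPP2, GMPs, MEPs, MPP1, MPP3 and MPP4 stood in that order between 85.6 and 55.7 CPM, and no neighbours among these 6 differed. Fractions further apart in the order did differ. MPP2 and GMPs each exceeded MPP1, MPP3 and MPP4, and MEPs exceeded MPP3 and MPP4. MPP2 against MPP4 had an adjusted p of 5.79e-05 (edgeR).

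Cdkn1a, which encodes p21, was highest in MPP4 and CLPs. Young MPP4 libraries held 107.9 and 93.1 CPM and Young CLP libraries 76.7 and 75.5 CPM, with MPP4 above CLPs (log2 difference of CLP minus MPP4 of -0.40, adjusted p = 0.00822, edgeR). In Aged libraries the 2 fractions changed places, with 54.3 and 61.7 CPM in MPP4 and 73.5 and 81.5 CPM in CLPs (log2 difference 0.42, adjusted p = 0.00677, edgeR). Young MPP3, MPP2, HSCs and MPP1 formed a plateau from 39.9 to 32.6 CPM in which no neighbours differed. GMPs (14.2 and 11.8 CPM) and MEPs (7.10 ± 1.43 CPM) were below it, each differing from the fraction above. In Aged, HSCs (49.7 ± 6.52 CPM) left that plateau and stood beside MPP4, from which they did not differ, and above MPP3 (25.4 ± 1.82 CPM).

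Cdkn2d and Cdkn1b were both lowest in MEPs. Cdkn2d (p19INK4d) was highest in CLPs, at 136.5 and 136.2 CPM in Young and 136.6 and 120.7 CPM in Aged, and lowest in MEPs, at 23.5 and 23.2 CPM in Young and 13.8 and 11.5 CPM in Aged. The Aged CLP libraries thus reached the Young level in one library and lay below it in the other. HSCs and the MPPs lay between 78.2 and 51.1 CPM in Young, with no difference between neighbours in the order. HSCs did exceed MPP3 (adjusted p = 2.22e-06, edgeR) and MPP4 (adjusted p = 2.80e-05, edgeR), which lay further down. Cdkn1b (p27) was between 13.1 and 19.1 CPM in Young HSCs, MPPs and CLPs and dropped to 4.98 ± 0.206 CPM in GMPs and 4.16 ± 1.82 CPM in MEPs. In Aged no neighbours in its order differed, from CLPs at 15.1 ± 0.231 CPM to MEPs at 4.89 ± 0.0232 CPM, but fractions further apart did. CLPs exceeded MEPs by 3.09-fold (adjusted p = 1.14e-06, edgeR). GMPs (adjusted p = 5.19e-05, edgeR) and MEPs (adjusted p = 4.11e-06, edgeR) were both below HSCs.

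**Figure D1:**
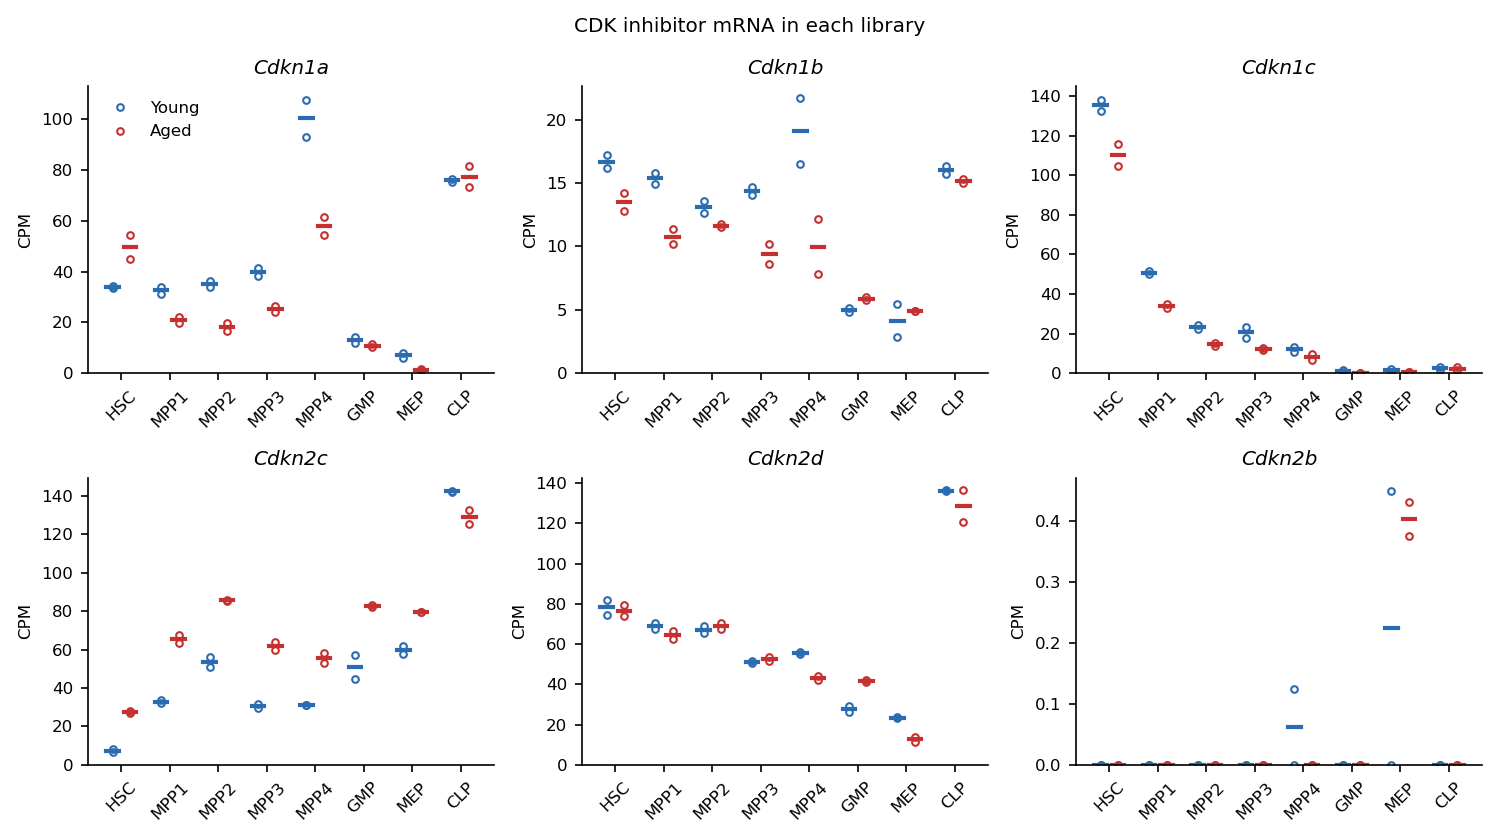
Level of the 5 tested CDK inhibitors and of Cdkn2b in CPM (vertical axis, linear) in the 8 fractions (horizontal axis). Cdkn2b did not pass the filter on low counts and was not tested. Open circles are single libraries and bars the mean of 2 libraries in Young and Aged. Cdkn1c declines from HSCs at 135.2 CPM in Young while Cdkn2c starts at 7.27 CPM, and the Aged Cdkn2c points lie above the Young ones in each fraction but CLPs.

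Over the 28 pairs of fractions, 100 of 140 comparisons of the 5 inhibitors were called in Young (71.4%) and 103 of 140 in Aged (73.6%), against 42.4% and 40.8% of the comparisons of all genes tested. Cdkn1b had the fewest, 12 of 28 in each age. Cdkn1a, Cdkn1c and Cdkn2d had 22 in Young, with 24, 24 and 22 in Aged, and Cdkn2c had 22 and 21.

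Cdkn2a and Cdkn2b were at or near the floor of detection. Cdkn2a, which is widely used as a marker of senescence, had 0 counts in each of the 32 libraries, Young and Aged alike, so that its level was under 0.186 to 0.281 CPM depending on the library. Cdkn2b had 18 counts in all. Of these, 2 were in a Young MPP4 library, 7 in a Young MEP library and 4 and 5 in the Aged MEP libraries, and the other 28 libraries held 0. Mtap, the single gene tested among 4 listed near this locus, was expressed and was called higher in Aged over the mean of the MPPs (log2 0.32) and lower in Aged GMPs (log2 -0.43). A difference of Cdkn2a or Cdkn2b between ages was therefore not detectable at this depth.

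Levels of different inhibitors were compared as RPKM, which divides CPM by the merged exon length. That length joins the exons of all annotated transcripts of a gene, expressed or not. It ran from 1574 bases for Cdkn2d to 4552 bases for Cdkn1b among the tested inhibitors, so the shares of the genes depend on the annotation. In Young HSCs the 5 detected inhibitors summed to 132.0 RPKM, of which Cdkn1c made up 50.3%, Cdkn2d 37.6% and Cdkn2c 2.05%. In Aged HSCs the sum was 129.8 RPKM, of which Cdkn1c made up 41.6%, Cdkn2d 37.5% and Cdkn2c 7.86%. The sum in HSCs thus moved little, with CIP/KIP genes at 79.6 RPKM in Young and 70.9 RPKM in Aged, and INK4 genes at 52.4 and 58.9 RPKM. Among the CIP/KIP genes Cdkn1c went from 66.3 to 54.0 RPKM and Cdkn1b from 3.67 to 2.97 RPKM. Neither age difference in HSCs was called, as given below. Cdkn1a, which was called higher there, went from 9.58 to 14.0 RPKM. CLPs had the highest sums, 165.7 RPKM in Young and 156.0 RPKM in Aged, mostly of Cdkn2d (52.3% and 52.4%) and Cdkn2c (31.98% and 30.8%). MEPs had the lowest, 40.9 and 39.6 RPKM, and there Cdkn2c made up 54.5% in Young and 74.8% in Aged. In each of MPP1 to MPP4 the CIP/KIP sum was lower in Aged (MPP1 37.5 against 24.9 RPKM, MPP2 24.3 against 14.8, MPP3 24.5 against 15.2, MPP4 38.4 against 22.5). The INK4 sum was higher there, from 56.0 to 65.4 RPKM in MPP1 and from 43.8 to 56.3 RPKM in MPP3, with the least difference in MPP4 (47.0 and 48.0 RPKM). These sums are descriptions and were not tested.

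**Figure D2:**
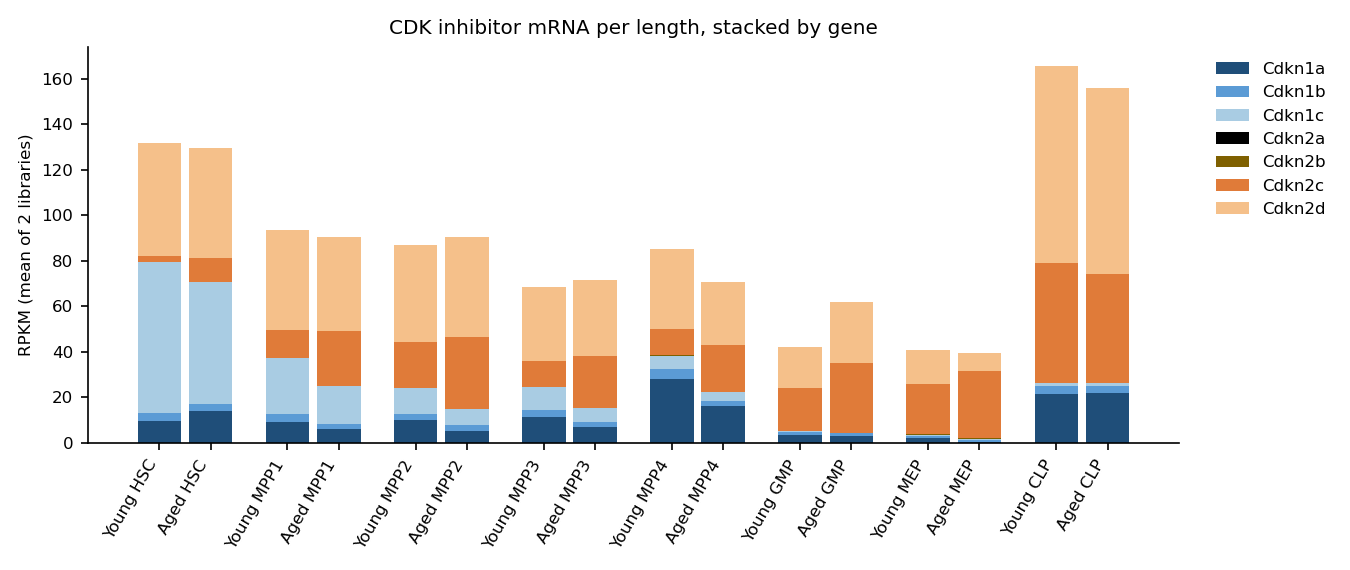
Stacked bars of RPKM (mean of 2 libraries, vertical axis) of the CDK inhibitors in the 16 groups of fraction and age (horizontal axis), coloured by gene. Cdkn1c fills 50.3% of the Young HSC bar of 132.0 RPKM, and Cdkn2d and Cdkn2c fill most of the CLP bars of 165.7 and 156.0 RPKM.

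The comparison of Aged with Young cells asked how the inhibitors change with age in each fraction. Of 40 comparisons, 5 genes by 8 fractions, 17 were called, 9 higher and 8 lower in Aged (42.5%, against 12.6% over all genes tested). Fits to the 4 libraries of each fraction alone called 11, with the 5 calls of GMPs and MEPs, those of Cdkn1b and Cdkn2d in MPP4 and that of Cdkn1a in HSCs lost and 2 of Cdkn1c gained. In HSCs, MPPs and GMPs 14 of 30 comparisons were called, and 15 in a fit without the MEP and CLP libraries. By fraction the called inhibitors were 2 of 5 in HSCs, where 5.40% of all genes were called, 2 of 5 in MPP1 (6.80%), 2 of 5 in MPP2 (7.81%) and 2 of 5 in MPP3 (13.9%). They were 4 of 5 in MPP4 (16.6%), 2 of 5 in GMPs (18.9%), 3 of 5 in MEPs (20.8%) and 0 of 5 in CLPs (10.4%). In CLPs 0 of the 5 had an unadjusted p under 0.05 in edgeR, and 0 were called by DESeq2.

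Cdkn2c was higher in Aged cells in 7 of 8 fractions. In HSCs it had 100 and 99 counts in the Young libraries and 343 and 418 in the Aged, or 7.27 ± 1.16 against 27.4 ± 0.840 CPM, a 3.79-fold rise (log2 1.92 ± 0.117 SE, adjusted p = 6.59e-10, edgeR). In MPP1 it went from 32.03 and 33.58 CPM to 63.5 and 67.4 CPM (log2 1.00, adjusted p = 1.01e-06, edgeR) and in MPP3 from 31.8 and 29.4 CPM to 63.8 and 59.6 CPM (log2 1.01, adjusted p = 4.83e-07, edgeR). The Young and Aged libraries of these fractions did not overlap. The rise was 1.79-fold in MPP4, 1.62-fold in GMPs, 1.60-fold in MPP2 and 1.33-fold in MEPs, where the Young libraries held 62.1 and 57.4 CPM and both Aged libraries 79.6 CPM. The call in MEPs was lost without the second Young or either Aged MEP library, at log2 0.31 to 0.38, with no filter on low counts (log2 0.33, adjusted p = 0.0160, edgeR) and in the fit to the 4 MEP libraries alone (adjusted p = 0.0277, edgeR). CLPs were the exception, with 142.8 and 141.9 CPM in Young and 125.3 and 132.5 CPM in Aged (log2 -0.14, 95% interval -0.34 to 0.05, adjusted p = 0.314, edgeR).

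Cdkn1a fell with age in the MPPs and MEPs and was higher in Aged HSCs. In HSCs the Young libraries held 33.7 and 34.4 CPM and the Aged 45.1 and 54.3 CPM, without overlap (1.46-fold, log2 0.55 ± 0.126 SE, adjusted p = 0.00632, edgeR). This call was close to the threshold and was lost in 19 of the 32 fits that each left out 1 library, in which the log2 difference was 0.40 to 0.64. In MPP2 it went from 36.3 and 33.8 CPM to 16.7 and 19.8 CPM (log2 -0.94 ± 0.131 SE, adjusted p = 6.66e-05, edgeR) and in MPP4 from 107.9 and 93.1 CPM to 54.3 and 61.7 CPM (log2 -0.79 ± 0.122 SE, adjusted p = 5.28e-05, edgeR). MPP1 (34.1 and 31.1 CPM against 22.0 and 20.0 CPM, log2 -0.64) and MPP3 (38.5 and 41.4 CPM against 24.1 and 26.7 CPM, log2 -0.65) were lower in Aged as well. The libraries of the 2 ages did not overlap in any of the MPPs. Without the first Young or either Aged library of MPP1, and without the second Young or first Aged library of MPP3, these 2 calls were lost, at log2 -0.53 to -0.68 and -0.55 to -0.57. In GMPs (log2 -0.27, interval -0.58 to 0.04) and CLPs (log2 0.03, interval -0.23 to 0.28) the differences were not called.

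The largest age difference of a called inhibitor was that of Cdkn1a in MEPs, from 6.08 and 8.11 CPM (95 and 113 counts) in Young to 1.31 and 1.55 CPM (14 and 18 counts) in Aged, 4.90-fold lower (log2 -2.29 ± 0.220 SE, adjusted p = 7.78e-08, edgeR). In the same libraries the summed level of 7 B cell genes was 164.7 to 165.6 CPM in Young and 0.430 to 1.22 CPM in Aged. Of the 7, 5 were called lower in Aged, and 5, among them Cd79a, Igll1 and Ebf1, were at 0 in both Aged libraries. The part of these B cell genes and of the sort antigen genes in the MEP differences was not tested. Cdkn2d moved with Cdkn1a in MEPs, from 23.5 and 23.2 CPM to 13.8 and 11.5 CPM (1.85-fold lower, adjusted p = 3.06e-07, edgeR), and without overlap between the ages.

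Cdkn2d changed in 2 further fractions, in opposite directions. In GMPs it rose from 26.4 and 29.1 CPM to 41.3 and 42.2 CPM (1.50-fold, log2 0.59 ± 0.0844 SE, adjusted p = 2.28e-05, edgeR), and in MPP4 it fell from 56.2 and 55.2 CPM to 43.9 and 42.1 CPM (log2 -0.37 ± 0.0809 SE, adjusted p = 0.00153, edgeR). In HSCs it was 74.5 and 81.9 CPM in Young and 74.1 and 79.3 CPM in Aged, and these overlap (log2 -0.03, interval -0.19 to 0.14). In MPP1, MPP2 and MPP3 its log2 differences were -0.09, 0.04 and 0.04.

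Of the other CIP/KIP genes, Cdkn1b was called in 1 fraction and Cdkn1c in 0 of 8 by edgeR, although 5 of its 8 differences had an unadjusted p under 0.05 and DESeq2 called 1 of them. Cdkn1b held 21.7 and 16.5 CPM in Young MPP4 and 12.2 and 7.81 CPM in Aged (log2 -0.94 ± 0.205 SE, adjusted p = 0.00159, edgeR), where the libraries of each age stood apart from each other as well. The call was lost without the first Young or the second Aged MPP4 library, at log2 -0.73 and -0.65, and so was that of Cdkn2d in MPP4, at -0.36 and -0.34. Cdkn1c had log2 differences of -0.30 in HSCs and of -0.58, -0.69, -0.76 and -0.57 in MPP1 to MPP4, with adjusted p from 0.0511 to 0.513 (edgeR). The Young and Aged libraries of Cdkn1c did not overlap in HSCs, and the interval there was -0.80 to 0.21. In GMPs Cdkn1c had 26 and 7 counts in Young and 3 and 2 counts in Aged, and in MEPs 8 and 33 counts in Young and 4 and 5 in Aged, and neither difference was called (adjusted p = 0.0523 and 0.0727, edgeR). The difference in GMPs was the one that DESeq2 called, and fits to the 4 libraries of a fraction alone called MPP1 and MPP2. A fit without the MEP and CLP libraries called MPP3 (adjusted p = 0.00843, edgeR).

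**Figure D3:**
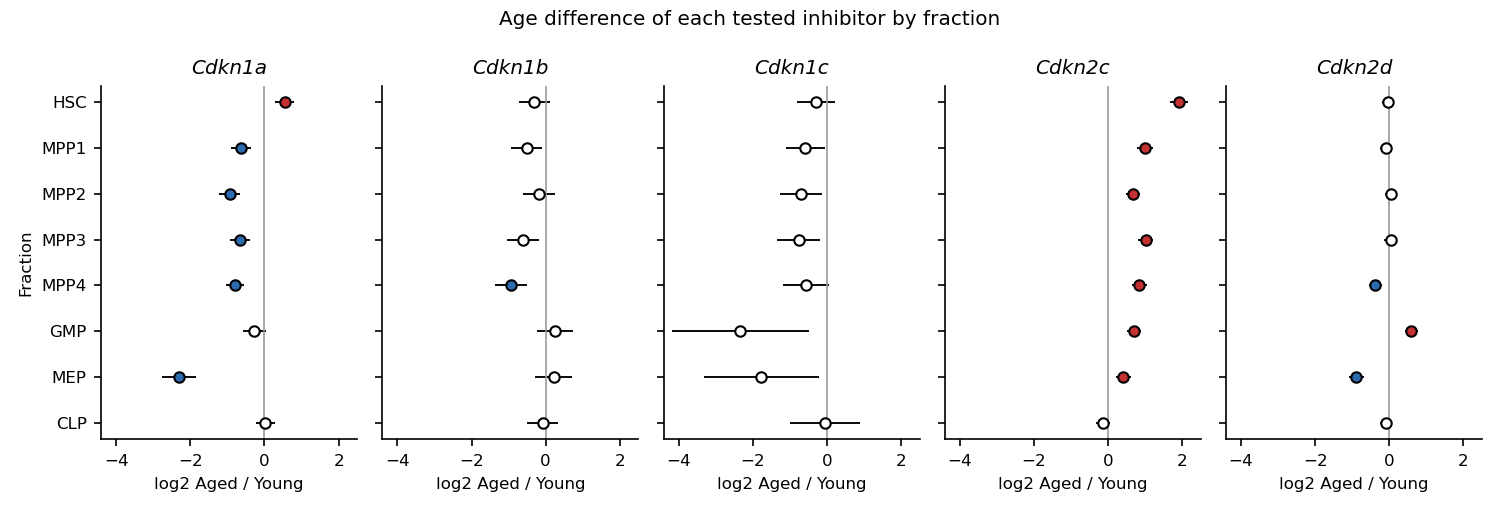
Log2 difference of Aged against Young (horizontal axis) of the 5 tested inhibitors in the 8 fractions (vertical axis), with bars for 95% intervals. Cdkn2c lies above 0 from HSCs (1.92) to MEPs (0.41), and Cdkn1a lies above 0 in HSCs (0.55) and below it in the MPPs and MEPs (-2.29).

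Averaged over MPP1 to MPP4, 4 of the 5 inhibitors were called, where 36.7% of all genes were. Cdkn2c was 1.84-fold higher in Aged (log2 0.88 ± 0.0488 SE, adjusted p = 1.08e-11, edgeR). All 3 CIP/KIP genes were lower, Cdkn1a by log2 -0.76 ± 0.0640 SE (adjusted p = 4.37e-09, edgeR), Cdkn1b by -0.56 ± 0.102 (adjusted p = 1.10e-04, edgeR) and Cdkn1c by -0.65 ± 0.138 (adjusted p = 5.13e-04, edgeR). Cdkn2d differed by -0.10 ± 0.0399 and was not called (adjusted p = 0.0481, edgeR), but DESeq2 called it (log2 -0.13, adjusted p = 0.00521), as did edgeR with library totals in place of TMM factors (log2 -0.15, adjusted p = 0.00151). In this fit of all 32 libraries Cdkn1c was thus called in the mean over the 4 fractions and in none of them by itself, unlike in the fits of fewer libraries above.

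Whether the age differences themselves differed between fractions was tested directly. For HSCs minus the mean of the MPPs, 2 of the 5 inhibitors were called, where 3.01% of all genes were. The age difference of Cdkn1a was higher in HSCs by 1.30 ± 0.142 on the log2 scale (adjusted p = 6.82e-06, edgeR), from 0.55 in HSCs and -0.76 in the MPPs. That of Cdkn2c was higher in HSCs by 1.04 ± 0.127 (adjusted p = 2.96e-05, edgeR), from 1.92 and 0.88. Both calls held in each of the fits that left out 1 library. For CLPs minus the MPPs, 2 of the 5 were called, where 22.6% of all genes were: Cdkn1a by 0.78 ± 0.138 (adjusted p = 1.44e-04, edgeR) and Cdkn2c by -1.02 ± 0.105 (adjusted p = 2.29e-07, edgeR). In the CLPs, markers of several mature cell types moved with age too. The summed level of 5 basophil and mast cell genes was 1737 to 1785 CPM in Young and 8.26 to 12.0 CPM in Aged, and 5 of 5 were called lower. Of 7 B cell genes 6 were lower in Aged CLPs, and of 4 plasmacytoid dendritic cell genes 4 were higher. All 6 neutrophil and all 6 macrophage genes were lower there too, and 5 of 6 megakaryocyte genes were higher. In HSCs 5 of 6 neutrophil genes were higher, with a sum of 72.4 to 75.2 CPM in Young and 275 to 310 CPM in Aged. So were 4 of 5 basophil and mast cell genes (0.978 to 1.62 against 10.3 to 18.2 CPM) and 2 of 7 T and NK cell genes (26.5 to 29.9 against 81.2 to 91.5 CPM). In MPP3 6 of 6 erythroid, 5 of 6 neutrophil, 4 of 6 megakaryocyte and 4 of 6 macrophage genes were lower in Aged. So were 3 of 7 B cell and 3 of 5 plasma cell genes. Of 5 basophil and mast cell genes there, 1 was higher and 1 lower. Of 5 stromal genes 3 were lower in MPP3. Their sum was 96.5 to 97.1 CPM in Young and 4.66 to 4.96 CPM in Aged. In MPP2 5 of 6 erythroid, 5 of 6 neutrophil, 3 of 6 megakaryocyte and 2 of 6 macrophage genes were lower. There 3 of 5 basophil and mast cell genes were lower and 1 higher. The stromal sum in MPP2 was 82.6 to 82.9 CPM in Young and 20.1 to 24.3 CPM in Aged, with 1 of 5 lower. In GMPs 4 of 6 erythroid genes were lower, with a sum of 42.9 to 45.6 CPM in Young and 2.85 to 7.78 CPM in Aged. So were 4 of 6 neutrophil, 3 of 6 macrophage, 2 of 5 plasma cell, 2 of 5 basophil and mast cell and 1 of 7 B cell genes. In the same fraction 1 of 7 T and NK cell and 1 of 4 plasmacytoid dendritic cell genes were higher. Aged MPP4 had 4 of 6 macrophage genes lower, with a sum of 9.47 to 10.98 CPM against 42.58 to 48.02 CPM in Young. Also lower in MPP4 were 3 of 6 megakaryocyte, 2 of 5 plasma cell and 2 of 5 basophil and mast cell genes. So were 1 of 6 erythroid, 1 of 4 plasmacytoid dendritic cell and 1 of 5 stromal genes. There 1 of 7 T and NK cell genes was higher. In MPP1 1 of 6 macrophage genes was lower. Higher there were 1 of 7 T and NK cell and 1 of 5 basophil and mast cell genes. The part of these genes in the inhibitor results was not tested.

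A further test asked whether the age difference was unequal over the 8 fractions, and it called 3 of the 5 inhibitors and 34.9% of all genes. The F values on 7 degrees of freedom were 24.7 for Cdkn1a (adjusted p = 3.59e-07, edgeR), 31.5 for Cdkn2c (adjusted p = 6.65e-08, edgeR) and 22.1 for Cdkn2d (adjusted p = 7.58e-07, edgeR). Cdkn1b (F = 3.55, adjusted p = 0.0264, edgeR) and Cdkn1c (F = 1.34, adjusted p = 0.371, edgeR) were not called.

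The proteins that the inhibitors bind were described from lists of genes. Over all genes tested, 3.74% were higher and 1.66% lower in Aged HSCs, 18.9% and 17.7% over the mean of the MPPs. The shares were 9.93% and 8.97% for GMPs, 9.08% and 11.7% for MEPs, 5.71% and 4.73% for CLPs, and the counts of each list stand beside these shares. Among 8 G1 cyclins and kinases, 6 were higher and 1 lower in Aged over the mean of the MPPs, where 36.7% of all genes were called in either direction, with a median log2 difference of 0.31 against -0.04 for all genes tested. Cdk6, the partner that p18 holds, was among them. It rose in HSCs from 18.7 and 19.9 CPM in Young to 32.8 and 29.7 CPM in Aged (log2 0.69, adjusted p = 8.60e-04, edgeR) and in MPP4 from 84.2 and 64.0 CPM to 151.2 and 156.3 CPM (log2 1.05). Cdk4 was higher over the MPPs (log2 0.39) and differed little in HSCs (log2 0.11, not called). Ccne1, the cyclin that activates CDK2, was higher in HSCs (log2 0.78) and over the MPPs (log2 0.82), and Ccne2 (log2 0.57), Ccnd3 (0.23) and Cdk2 (0.21) were higher over the MPPs. Ccnd2, a D-type cyclin, was the gene that was lower, at 532.9 and 492.5 CPM in Young and 302.2 and 352.1 CPM in Aged HSCs (log2 -0.65) and with log2 -0.69 over the MPPs. Ccnd1 was not called over the MPPs (log2 -0.18) and was higher in Aged CLPs (log2 1.43). In GMPs 4 of the 8 were lower and 0 higher.

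All 4 genes of S and M phase, Ccna2, Ccnb1, Ccnb2 and Cdk1, were higher over the MPPs (median log2 0.66, all genes -0.04), and 3 of 4 were higher in HSCs, with Ccna2 at log2 0.85. In CLPs all 4 were lower (median log2 -0.49, all genes 0.00). The list of 13 proliferation genes went likewise. Of these, 7 were higher in HSCs, 13 over the mean of the MPPs and 0 in CLPs, where 7 were lower. Mki67, the gene of the Ki-67 antigen, went from 6.72 and 6.91 CPM in Young HSCs to 41.4 and 35.0 CPM in Aged (log2 2.48, adjusted p = 1.37e-06, edgeR). Of 11 pocket protein and E2F genes 3 were higher in HSCs, the E2F repressors E2f8 (log2 1.34) and E2f7 (log2 1.23) and the activator E2f2 (log2 0.95), and 6 were higher and 2 lower over the MPPs. The fractions with the higher proliferation genes in Aged, HSCs and MPPs, were those where Cdkn2c was higher too. In GMPs and MEPs, where Cdkn2c was also higher, 4 and 1 of the 13 genes were higher and 5 and 4 lower. The 4 higher in GMPs were Mki67, Plk1, Top2a and Aurkb, and the 5 lower were Mcm4, Pcna, Mcm6, Rrm2 and Mcm5. Of the 4 S and M phase genes, Ccnb1 and Cdk1 were higher in GMPs and 0 lower. In MEPs 0 of these 4 were higher and Ccna2 was lower.

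**Figure D4:**
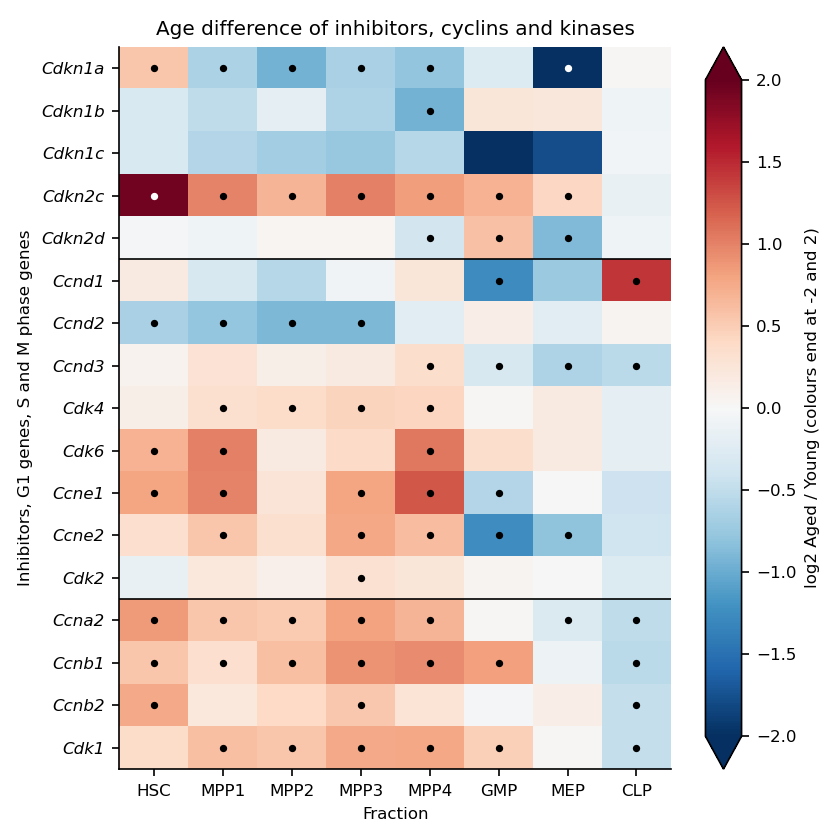
Log2 difference of Aged against Young (colour, ending at -2 and 2) of the 5 tested inhibitors, 8 G1 and 4 S and M phase genes (rows) in the 8 fractions (columns), with a dot where the gene was called. In HSCs Cdkn2c (1.92), Ccna2 (0.85) and Cdk6 (0.69) are called higher and Ccnd2 (-0.65) lower.

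Across the 16 group means, the summed CPM of the 13 proliferation genes ran from 1733 in Young and 2134 in Aged HSCs to 9568 in Young and 8658 in Aged MEPs. As a description, and over points that share libraries and depth, the sum correlated with Cdkn2c at r = 0.794 (Spearman's rho 0.571) and with Cdkn1c at -0.781 (rho -0.762). The other inhibitors were negative as well, at -0.607 for Cdkn1b (rho -0.756), -0.461 for Cdkn2d (rho -0.594) and -0.421 for Cdkn1a (rho -0.503). By rho Cdkn1b was thus close to Cdkn1c. Among the inhibitors, Cdkn1a, Cdkn1b and Cdkn2d were alike in pattern (r from 0.833 to 0.838), Cdkn1c and Cdkn2c opposed (-0.674), and Cdkn2c and Cdkn2d of the same family unrelated (-0.00201).

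**Figure D5:**
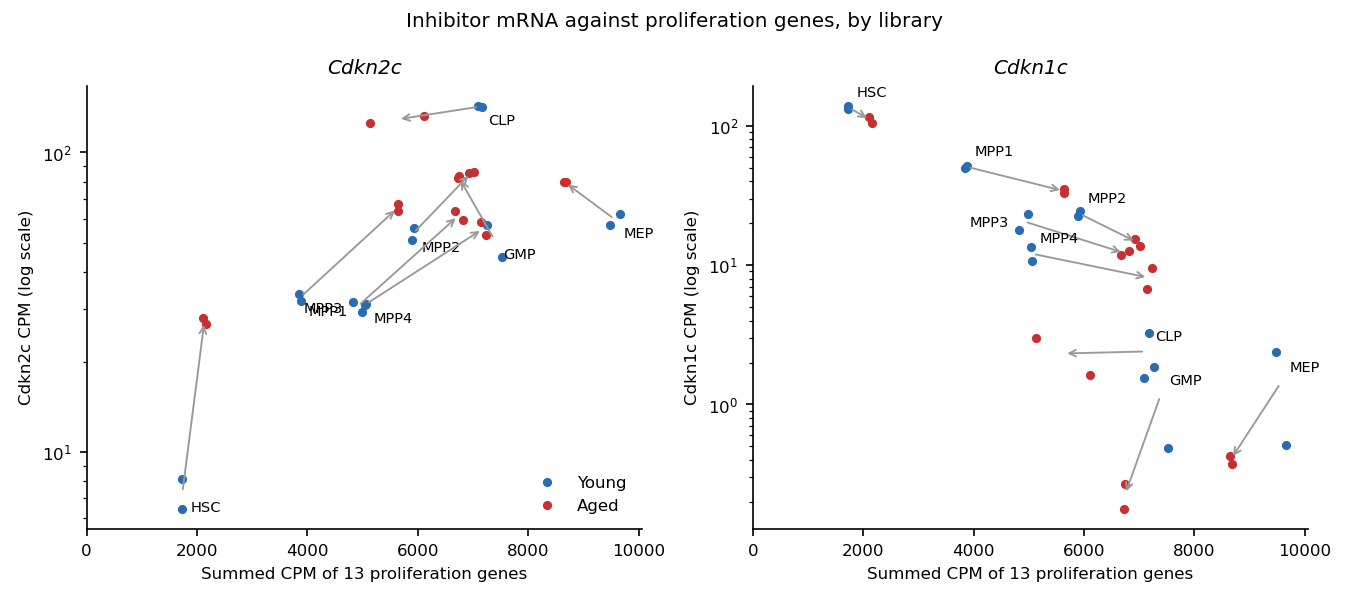
Inhibitor level (CPM, vertical log axis) against the summed CPM of 13 proliferation genes (horizontal axis), with a point for each library and an arrow from the Young to the Aged mean of a fraction. HSCs sit at the low end of the sum, 1733 in Young and 2134 in Aged, where Cdkn1c is highest at 135.2 and 110.0 CPM.

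The genes most like each inhibitor over the 16 group means of log2 CPM were found by Pearson correlation. For Cdkn2c they were the histone H3 genes Hist1h3g (r = 0.947), Hist2h3b (0.940) and Hist1h3f (0.939), which are near-identical copies whose reads the counting could divide. For Cdkn1c they were Fam120aos (0.988), Wtip (0.984) and Gprc5a (0.982), and for Cdkn1a Stk10 (0.977), Mef2c (0.972) and Ablim1 (0.958). Cdkn1b was most like Rab6b (0.961), Khnyn (0.959) and Irf2 (0.958), and Cdkn2d most like Hivep3 (0.973), Map4k2 (0.960) and Sh3rf1 (0.959). By Spearman's rho 3 of these 15 genes were again among the 3 most alike.

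Regulators of the inhibitors were listed next. Of 14 transcription regulators, 2 were lower and 0 higher in Aged HSCs, where 1.66% of all genes were lower: Gfi1, a repressor that restrains HSC proliferation, from 25.6 and 32.4 CPM to 13.2 and 17.4 CPM (log2 -0.92), and Mdm2, the ligase of p53, from 70.1 and 71.8 CPM to 61.5 and 49.4 CPM (log2 -0.36). Over the MPPs, where 17.7% of all genes were lower and 18.9% higher, 8 were lower and 1 higher (median log2 -0.28, all genes -0.04), with Kdm6b, a histone H3K27 demethylase, at -0.80, and the forkhead factors Foxo3 at -0.69 and Foxo1 at -0.49. The one higher was Trp53, which encodes p53 (log2 0.27), while Cdkn1a, its target, was lower there. Of 16 Polycomb genes, whose products silence Cdkn2a, 1 was higher and 1 lower in HSCs, near the shares of all genes there, and 2 were higher and 8 lower over the MPPs (median log2 -0.21), led by Cbx7 (-0.67), Ezh1 (-0.50) and Phc3 (-0.43), and with Ezh2 (0.31) and Eed (0.34) the 2 that were higher. Cdkn2a stood at 0 counts in each of these libraries.

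Of 11 genes for the ubiquitin ligases that degrade CIP/KIP proteins, 8 were higher and 0 lower over the MPPs (median log2 0.23), where 18.9% of all genes were higher, among them Cdc20 (0.49), Cks1b (0.47) and Skp2 (0.42), and 0 were called in HSCs by edgeR, where 3 had an unadjusted p under 0.05, or by DESeq2. Around the imprinted Cdkn1c, 9 of 10 listed neighbours were tested, of which 2 were higher and 4 lower over the MPPs, where 18.9% and 17.7% of all genes were. Phlda2 (log2 -1.16) and Slc22a18 (-0.67) were among the lower and Cars (0.63) among the higher.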

How the data were processed

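RNA was measured by sequencing in 32 libraries of 16 groups, with 2 libraries each. Per the study's methods, cDNA was made with the SMARTer Ultra Low Input kit and single reads were aligned to mm10 by the authors with TopHat2 2.0.13 and Bowtie2 2.1.0 and assigned to genes with StringTie. The deposited table holds raw counts as whole numbers. The deposited table of normalized counts and 8 tables of the authors' own comparisons, with fold changes and p-values, were not used.

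The main test was edgeR 4.0.16 (R 4.3.3) with TMM factors (0.807 to 1.11), a filter on low counts, 1 mean per group over all 32 libraries, 16 residual degrees of freedom and quasi-likelihood F-tests, two-sided, with Benjamini-Hochberg adjustment within a contrast over 14154 genes and a threshold of 0.01. Total counts were 11237384 to 17723245 per library. Standard errors are the log2 difference over the square root of F. The test was checked on simulated counts that gave all genes the same spread and changed only well-counted genes in HSCs. That check does not cover genes of other spread, changed genes at low counts or pooled marrow. Alternatives were DESeq2 1.42.0, its size factors, no filter, a replicate block, single fractions, other thresholds and leaving out each library. All 7 inhibitors, the G1 genes, the S and M phase genes and the proliferation genes called in GMPs are named. Of the other lists, up to 3 called genes with the largest log2 difference in a comparison are named. Inhibitors and lists were chosen with earlier results of these data known. Correlations used log2 CPM with a prior count of 2. One listed marker gene is not reported here and was left out of its list. RPKM used GENCODE M21 merged exons.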

Additional observations from a re-analysis of the deposited data

Results flagged for a closer look

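Of the results above, 7 stood out because the age difference of an inhibitor was not the same between fractions by a direct test. They come from Cdkn1a, Cdkn2c and Cdkn2d alone, through contrasts that share libraries. Of all genes tested, 3.01% were called for HSCs minus the MPPs and 22.6% for CLPs minus the MPPs. The test over all 8 fractions called 34.9%. The age difference of Cdkn1a was higher in HSCs than in the mean of the MPPs by 1.30 on the log2 scale, and that of Cdkn2c by 1.04. For Cdkn1a the difference had opposite signs, with 2 of 2 Aged HSC libraries above both Young and 8 of 8 Aged MPP libraries below the Young libraries of their fraction. Between CLPs and the MPPs the age differences parted by 0.78 for Cdkn1a and by -1.02 for Cdkn2c. Over all 8 fractions the F values were 24.7 for Cdkn1a, 31.5 for Cdkn2c and 22.1 for Cdkn2d. In the HSC, MPP, GMP, CLP and MEP libraries markers of mature cells differed between the ages as given above, and their part in these differences was not tested.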

How the results depend on the processing

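With an absolute log2 difference of at least 1 as a further criterion, 3 of the 17 calls of inhibitors remained, 0 of 4 over the mean of the MPPs, 1 of 2 for CLPs minus the MPPs and 28 of 224 calls of the listed pathway genes. Fits to the 4 libraries of a fraction alone called 11 inhibitors. They lost Cdkn1a in HSCs (adjusted p = 0.0994) and MEPs (0.0104), Cdkn1b and Cdkn2d in MPP4 (0.0295 and 0.0206), Cdkn2c in GMPs (0.0111) and MEPs (0.0277) and Cdkn2d in GMPs (0.0141) and MEPs (0.0142), and gained Cdkn1c in MPP1 and MPP2. These fits have fewer samples. DESeq2 called 19, its size factors in edgeR 17, no filter 16 and library totals without scaling factors, added after the data were seen, 16. The calls of all genes moved as well. In HSCs 529 were higher and 235 lower in the main fit, and 922 and 432 under DESeq2. Fits to the 4 libraries of a fraction alone gave 161 and 46 in HSCs, but 1749 and 1587 in MPP2, against 636 and 469 in the main fit. Within a fraction, Young and Aged libraries of the same replicate number did not deviate together (correlations of deviations from -0.0557 to 0.0704). Whether libraries of the same number in different fractions share a sort was not tested. A fit with the replicate block called 16, without Cdkn1a in HSCs (log2 0.54, adjusted p = 0.0115, edgeR), which library totals did not call either (log2 0.50, adjusted p = 0.0123, edgeR). Uncalled differences near 0 changed sign: Cdkn2d in MPP3 under DESeq2 (-0.00597), its size factors (-0.00554) and library totals (-0.00991), and Cdkn2d in MPP2 under library totals (-0.0143). In MPP3 the split of all called genes moved from 1152 higher and 820 lower to 945 and 991 with DESeq2 size factors. The fit without the MEP and CLP libraries, also added after the data were seen, called 15 inhibitors in the other 6 fractions, against 14.

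Leaving out each library in turn gave 14 to 18 called inhibitors, 4 to 5 over the MPPs, 2 for HSCs minus the MPPs, 2 for CLPs minus the MPPs, 3 to 4 for unequal age differences, 96 to 104 and 95 to 106 pairs of fractions in Young and Aged, and 201 to 248 pathway calls. Where it changed the sign of an uncalled difference, the range was -0.0481 to 0.0897 for Cdkn2d in HSCs minus the MPPs and -0.0987 to 0.0642 for CLPs minus the MPPs, -0.202 to 0.733 for Cdkn1b in MEPs, -0.0640 to 0.101 for Cdkn1a in CLPs and -0.553 to 0.557 for Cdkn1c in CLPs. The sign turned without the second Young MEP library for Cdkn1b, the second Aged CLP library for Cdkn1a, and the second Young or second Aged CLP library for Cdkn1c. Cdkn1c in MEPs was called without the first Young MEP library (-2.56). A left-out library leaves 1 library in a group, assumed to vary like the others. With 2 libraries a group, genes at a few counts, such as Cdkn1c in GMPs and MEPs, are limited by depth.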
